A study of Mus musculus with 16 samples.

Results

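The genes described here encode the mitochondrial respiratory chain and the ATP synthase, measured in the mouse hippocampus on 16 Affymetrix arrays. They were picked by symbol, under a rule set with earlier results of these data known. The rule took the Nduf genes of the a, b, c, s and v series, Sdha to Sdhd, every symbol starting with Uqcr, Atp5 or Cox4 to Cox8, and the cytochrome genes Cycs and Cyc1. It gave 91 of the 22180 genes on the array that could be named from a probe set with 1 symbol. Of the 91, 40 belong to complex I (6 core subunits, 26 accessory subunits and 8 assembly factors), 4 to complex II, 8 to complex III, 19 to complex IV and 17 to complex V, the ATP synthase. Cycs, the cytochrome c gene, and 2 pseudogenes, Atp5c1-ps and Uqcrh-ps1, complete the set. Probe sets with several symbols, of which 10 match the rule, were not analysed here.

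The mice were C57BL/6 animals aged 8 to 10 weeks, in 4 groups of 4 arrays. Astro-D2KO mice carried a floxed allele of D2, the type 2 deiodinase gene Dio2, together with a Cre recombinase labelled as glial, and control mice carried the Cre recombinase with wild-type Dio2. Astro-D2KO mice with status epilepticus (SE), Astro-D2KO mice given saline, control mice with SE and control mice given saline thus all carried Cre. All mice, the saline groups included, were first given lithium chloride (10 mEq/kg), which lowers the seizure threshold, and after 18 h pilocarpine (65 mg/kg) or saline. The sources used here name neither the Cre promoter nor the sex of the mice nor the interval before the tissue was taken. Effects of seizures and of pilocarpine cannot be told apart in any comparison of SE with saline.

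Complex I takes electrons from NADH and complex II takes them from succinate. Both pass them through ubiquinone to complex III, cytochrome c and complex IV, which reduces oxygen, and the proton gradient built on the way drives ATP synthesis by complex V. Most subunits are encoded in the nucleus and a smaller set by mitochondrial DNA, so the chain is assembled from the products of both genomes with the help of dedicated assembly factors. Hippocampal neurons depend on this ATP to restore ion gradients after firing, and thyroid hormone, whose active form is made by the Dio2 enzyme in astrocytes, is known in several tissues as a regulator of mitochondrial genes.

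All values are log2 units, an inferred base, and errors of changes are standard errors of a limma fit over the 4 groups. A gene was called at a Benjamini-Hochberg adjusted p under 0.05 over all 22180 genes. Arrays correlated over genes with Pearson r from 0.972 to 0.994. The 10 activity-regulated genes of a companion list all rose after SE in both genotypes, with median changes of 3.12 in Astro-D2KO mice and 3.20 in control mice. Hippocampal neuron markers were well expressed, with Slc17a7 of excitatory neurons averaging between 10.85 and 11.26 over the groups. Dio2 averaged 6.78 ± 0.23 in Astro-D2KO saline arrays and 8.14 ± 0.19 in control saline arrays (SD, n = 4 each, two-sided exact permutation p = 0.0286, the smallest that 4 against 4 allows). After SE it stood at 8.91, 7.03, 7.17 and 7.12 in the Astro-D2KO arrays and at 9.51, 9.11, 9.24 and 7.99 in the control arrays (exact permutation p = 0.0571). The array labelled Astro-D2KO SE replicate 1 thus read above the other arrays of its group, and the one labelled control SE replicate 4 below the others of its group. Counts are therefore given with and without these 2 arrays. The sources used here do not say which stretch of Dio2 the probe set reads.

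After SE, respiratory chain genes were lower where they were called at all. In Astro-D2KO mice 14 of the 91 genes fell and 0 rose, a share of 15.4% lower, against 12.6% of all genes called lower and 7.49% called higher. In control mice 28 fell and 0 rose, a share of 30.8% lower, against 13.7% of all genes lower and 8.42% higher. Without the 2 arrays named above, 15 genes in Astro-D2KO mice (10 of them among the 14) and 20 in control mice (20 of them among the 28) were called lower, against 11.4% and 13.4% of all genes. The changes were small: the largest was 1.47-fold in Astro-D2KO mice and 1.61-fold in control mice.

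The genes of the chain are brighter than most, which bears on these shares. Restricted to genes with a mean of at least 6, the share called lower was 14 of 81 (17.3%) in Astro-D2KO mice, against 20.4% of all such genes, and 27 of 81 (33.3%) in control mice, against 22.5%. In Astro-D2KO mice the set as a whole was therefore called about as often as other genes of that brightness. The median change was -0.13 in Astro-D2KO mice and -0.18 in control mice, where the medians over all genes with a mean of at least 6 were -0.07 and -0.08. Fitted changes were below 0 for 76 of the 91 genes in Astro-D2KO mice, against 51.4% of all genes, and for 81 in control mice, against 53.8%. With a mean of at least 6, this held for 71 of 81 in Astro-D2KO mice (87.7%, against 60.5% of all such genes) and for 75 in control mice (92.6%, against 61.8%). Of the brightest members, 0 of the 6 with a mean of at least 11 were called in either genotype, where 11.8% of all genes that bright were called lower in each.

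The arrays show the same downward displacement directly. Averaged over all 91 genes as a deviation from each gene's mean over the 16 arrays, the Astro-D2KO SE arrays lay between -0.14 and -0.02 and the Astro-D2KO saline arrays between 0.03 and 0.12. Control SE arrays lay between -0.13 and -0.035 and control saline arrays between 0.04 and 0.17. SE and saline arrays did not overlap in either genotype, and arrays of the 2 genotypes overlapped within each treatment. Averaged over all genes with a mean of at least 6, Astro-D2KO arrays were also apart, at -0.033 to -0.007 after SE and 0.001 to 0.020 with saline. Control arrays overlapped there, at -0.034 to 0.019 and -0.014 to 0.040. The lack of overlap in Astro-D2KO mice is thus shared with brighter genes at large, while the shift of the members is larger. Gene by gene, all SE arrays lay below all saline arrays for 24 members in Astro-D2KO mice (26.4%, against 15.1% of all genes) and for 30 in control mice (33.0%, against 13.7%). Among genes with a mean of at least 6 the shares were 29.6% of members, against 24.5% of genes, in Astro-D2KO mice and 35.8%, against 22.2%, in control mice, so in Astro-D2KO mice the excess was small at matched brightness. The opposite order was seen for Atp5d in Astro-D2KO mice (1.1% of the members, against 9.54% of all genes) and for Ndufaf4 in control mice (1.1%, against 8.46%), and neither was called. In hippocampal tissue, fewer cells of a type and less RNA per cell cannot be told apart.

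**Figure D1:**
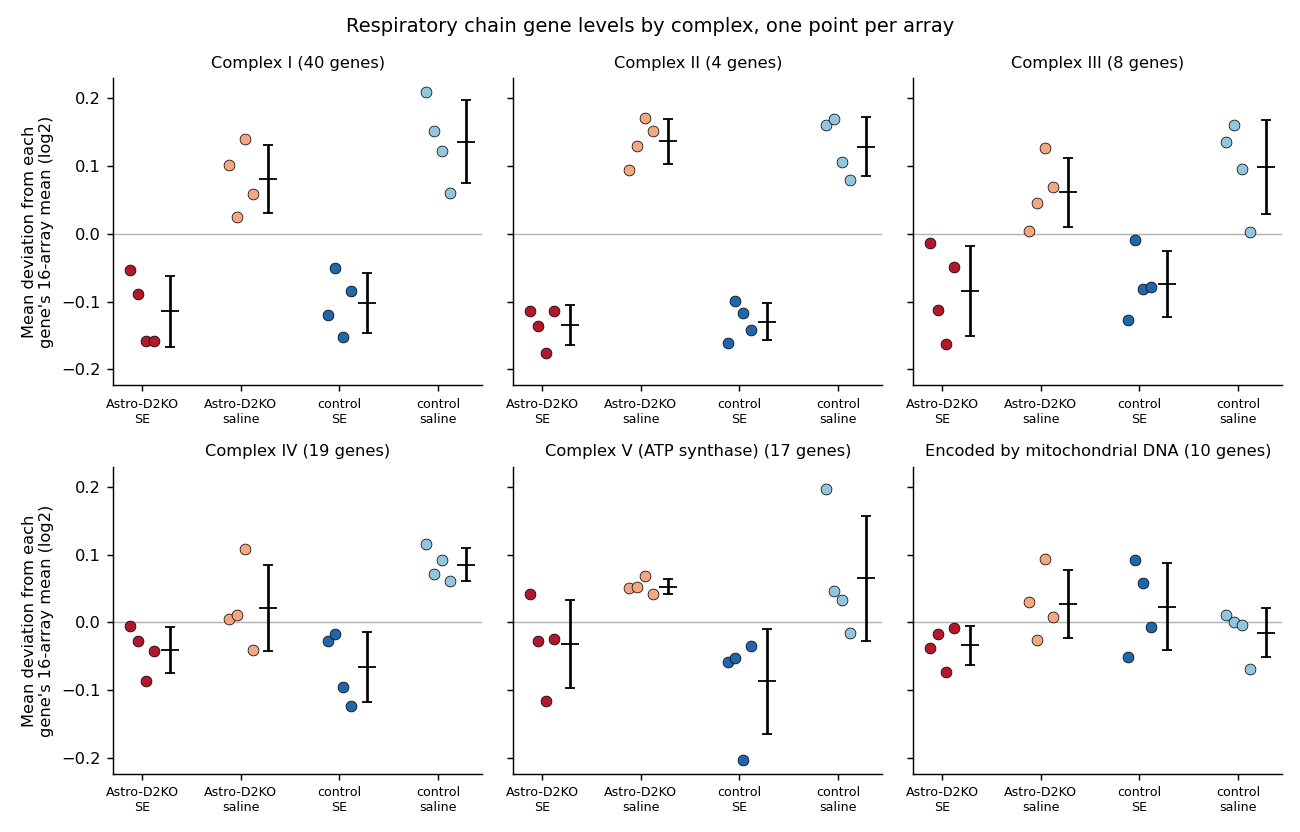
Each point is 1 array, plotted as the mean over the genes of a complex of the deviation from each gene's mean over the 16 arrays, in log2 units; the mark and bar beside each group are its mean and SD (n = 4). SE arrays lie below saline arrays of the same genotype for complexes I, II and III, and overlap them for complexes IV and V in Astro-D2KO mice. For the 10 genes encoded by mitochondrial DNA they overlap in both genotypes. The means of these 10 are -0.034 after SE and 0.0265 with saline in Astro-D2KO mice, and 0.0229 and -0.0153 in control mice.

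Complex I held most of the calls. Of its 40 genes, 12 fell in Astro-D2KO mice and 20 in control mice, with median changes of -0.18 and -0.24, whereas 2 and 8 of the 49 protein-coding members outside complex I were called. Without the 2 arrays, 11 complex I genes in Astro-D2KO mice and 16 in control mice were called lower. Outside complex I, 4 of the 49 were then called lower in Astro-D2KO mice and 4 in control mice. Among the core subunits, which carry the flavin and most of the iron-sulphur clusters and are conserved from bacteria, 3 of 6 fell in Astro-D2KO mice and 5 of 6 in control mice. The share among accessory subunits was 5 of 26 in Astro-D2KO mice and 11 of 26 in control mice. Beside these counts, 20.4% of all genes with a mean of at least 6 were called lower in Astro-D2KO mice and 22.5% in control mice. The share of accessory subunits in Astro-D2KO mice is thus near that of other genes of this brightness. Whether complex I differs from the other complexes was not tested.

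Ndufs3, a core subunit of the module that hands electrons to ubiquinone, stood at 6.76, 6.67, 6.72 and 6.56 in Astro-D2KO SE arrays, against 6.93, 6.94, 6.99 and 6.98 in Astro-D2KO saline arrays. In the control groups it stood at 6.49, 6.67, 6.39 and 6.60 after SE, against 7.17, 6.96, 7.18 and 7.11 under saline. Every SE array was below every saline array of its genotype, and the Astro-D2KO saline arrays lay close together. The change was -0.28 ± 0.078 in Astro-D2KO mice (adjusted p = 0.0157) and -0.57 ± 0.078 in control mice (adjusted p = 5.88e-05).

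Ndufs1, the iron-sulphur subunit of the NADH-oxidising arm, was at 8.68, 8.62, 8.51 and 8.64 in Astro-D2KO SE arrays, against 8.90, 8.85, 8.97 and 8.95 with saline. Control arrays read 8.50, 8.74, 8.67 and 8.68 after SE, against 8.96, 8.99, 8.93 and 8.85 with saline. The groups did not overlap in either genotype and their spacing was nearly the same, with changes of -0.31 ± 0.071 in Astro-D2KO mice (adjusted p = 0.00528) and -0.28 ± 0.071 in control mice (adjusted p = 0.00771). Ndufs7, another core subunit that binds an iron-sulphur cluster next to ubiquinone, changed by -0.19 ± 0.062 in Astro-D2KO mice (adjusted p = 0.0368) and -0.30 ± 0.062 in control mice (adjusted p = 0.00197). Its call in Astro-D2KO mice was lost without the 2 arrays. Ndufv1, the flavoprotein that accepts electrons from NADH, changed by -0.19 ± 0.090 in Astro-D2KO mice (adjusted p = 0.151) and fell in control mice (-0.33 ± 0.090, adjusted p = 0.0136). Ndufs8, a further iron-sulphur core subunit, had a change of -0.18 ± 0.080 in Astro-D2KO mice (adjusted p = 0.146) and fell in control mice (-0.34 ± 0.080, adjusted p = 0.00492). Ndufv2 was the 1 core subunit called in neither genotype.

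Accessory subunits surround the core and are needed for its stability. Ndufv3, which sits on the NADH-oxidising arm, read 7.50, 7.53, 7.68 and 7.49 in Astro-D2KO SE arrays, against 7.88, 7.86, 8.05 and 7.84 with saline. In control mice it read 7.45, 7.52, 7.29 and 7.64 after SE, against 7.86, 8.15, 8.11 and 7.90 with saline. No SE array reached a saline array of its genotype. The change was -0.36 ± 0.092 in Astro-D2KO mice (adjusted p = 0.00923) and -0.53 ± 0.092 in control mice (adjusted p = 0.000473).

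Ndufs4, whose loss in mice gives a Leigh-like brain disease, stood at 8.38, 8.62, 8.51 and 8.61 in Astro-D2KO SE arrays, against 8.77, 8.77, 9.02 and 8.82 with saline. The control values were 8.34, 8.50, 8.43 and 8.51 after SE, against 9.14, 8.73, 8.94 and 8.73 with saline. The SE groups lay wholly below the saline groups, and 1 control saline array was well above the rest. The change was -0.32 ± 0.097 in Astro-D2KO mice (adjusted p = 0.0269, lost without the 2 arrays) and -0.44 ± 0.097 in control mice (adjusted p = 0.00307). Ndufa9, which lies where the 2 arms of the complex meet, fell by 0.24 on the log2 scale in Astro-D2KO mice (adjusted p = 0.0323, lost without the 2 arrays) and by 0.32 in control mice (adjusted p = 0.00569).

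Several accessory subunits were called in 1 genotype. Ndufa3 and Ndufa1, small membrane-arm subunits, fell in Astro-D2KO mice, by 0.32 (adjusted p = 0.00766) and 0.29 (adjusted p = 0.0284) on the log2 scale. In control mice Ndufa3 changed by -0.22 (adjusted p = 0.052) and Ndufa1 by -0.22 (adjusted p = 0.0967), neither called. Ndufa11, Ndufa6 and Ndufa2 changed by -0.17, -0.29 and -0.16 in Astro-D2KO mice, with adjusted p of 0.16, 0.0523 and 0.205, and were not called there. In control mice they fell, by 0.41, 0.40 and 0.36 on the log2 scale, with adjusted p of 0.00105, 0.00809 and 0.00436. A call in 1 genotype does not show a difference between genotypes, and the test of that difference is given further on. A second, dimmer Ndufa11 probe set gave 0.10 in Astro-D2KO mice and -0.20 in control mice, so its probe sets disagreed in size and, in Astro-D2KO mice, in sign.

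Assembly factors build complex I and are not part of the finished enzyme. Of the 8 Ndufaf genes, 4 fell in Astro-D2KO mice and the same 4 in control mice: Ndufaf3, Ndufaf5, Ndufaf6 and Ndufaf7. Ndufaf3, which with Ndufaf4 helps assemble the ubiquinone module, stood at 7.34, 7.35, 7.45 and 7.30 in Astro-D2KO SE arrays, against 7.75, 7.70, 7.80 and 7.72 with saline. Control arrays stood at 7.22, 7.28, 7.32 and 7.10 after SE, against 7.85, 8.01, 7.86 and 7.77 with saline. The gap between SE and saline exceeded the spread within any group. The change was -0.38 ± 0.073 in Astro-D2KO mice (adjusted p = 0.00123) and -0.64 ± 0.073 in control mice (adjusted p = 8.83e-06), the smallest adjusted p of any member in control mice.

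Ndufaf6 read 5.76, 6.11, 5.80 and 5.99 in Astro-D2KO SE arrays, against 6.46, 6.50, 6.48 and 6.45 with saline. Control values were 6.00, 6.35, 6.27 and 6.01 after SE, against 6.72, 6.34, 6.54 and 6.33 with saline. The Astro-D2KO groups were clearly apart, while the control groups overlapped. Its change of -0.56 ± 0.11 was the largest of any member in Astro-D2KO mice (adjusted p = 0.00124). The control change was -0.32 ± 0.11 (adjusted p = 0.0366), a call lost without the 2 arrays. Ndufaf7, which methylates a core subunit, fell by 0.40 on the log2 scale in Astro-D2KO mice (adjusted p = 0.00579) and by 0.47 in control mice (adjusted p = 0.00153). Ndufaf5, which hydroxylates Ndufs7, fell by 0.30 in both (adjusted p = 0.0276 in Astro-D2KO mice, lost without the 2 arrays, and 0.024 in control mice). Ndufaf4, the partner of Ndufaf3, was not called, with -0.11 ± 0.082 in Astro-D2KO mice (adjusted p = 0.409) and 0.21 ± 0.082 in control mice (adjusted p = 0.0823).

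**Figure D2:**
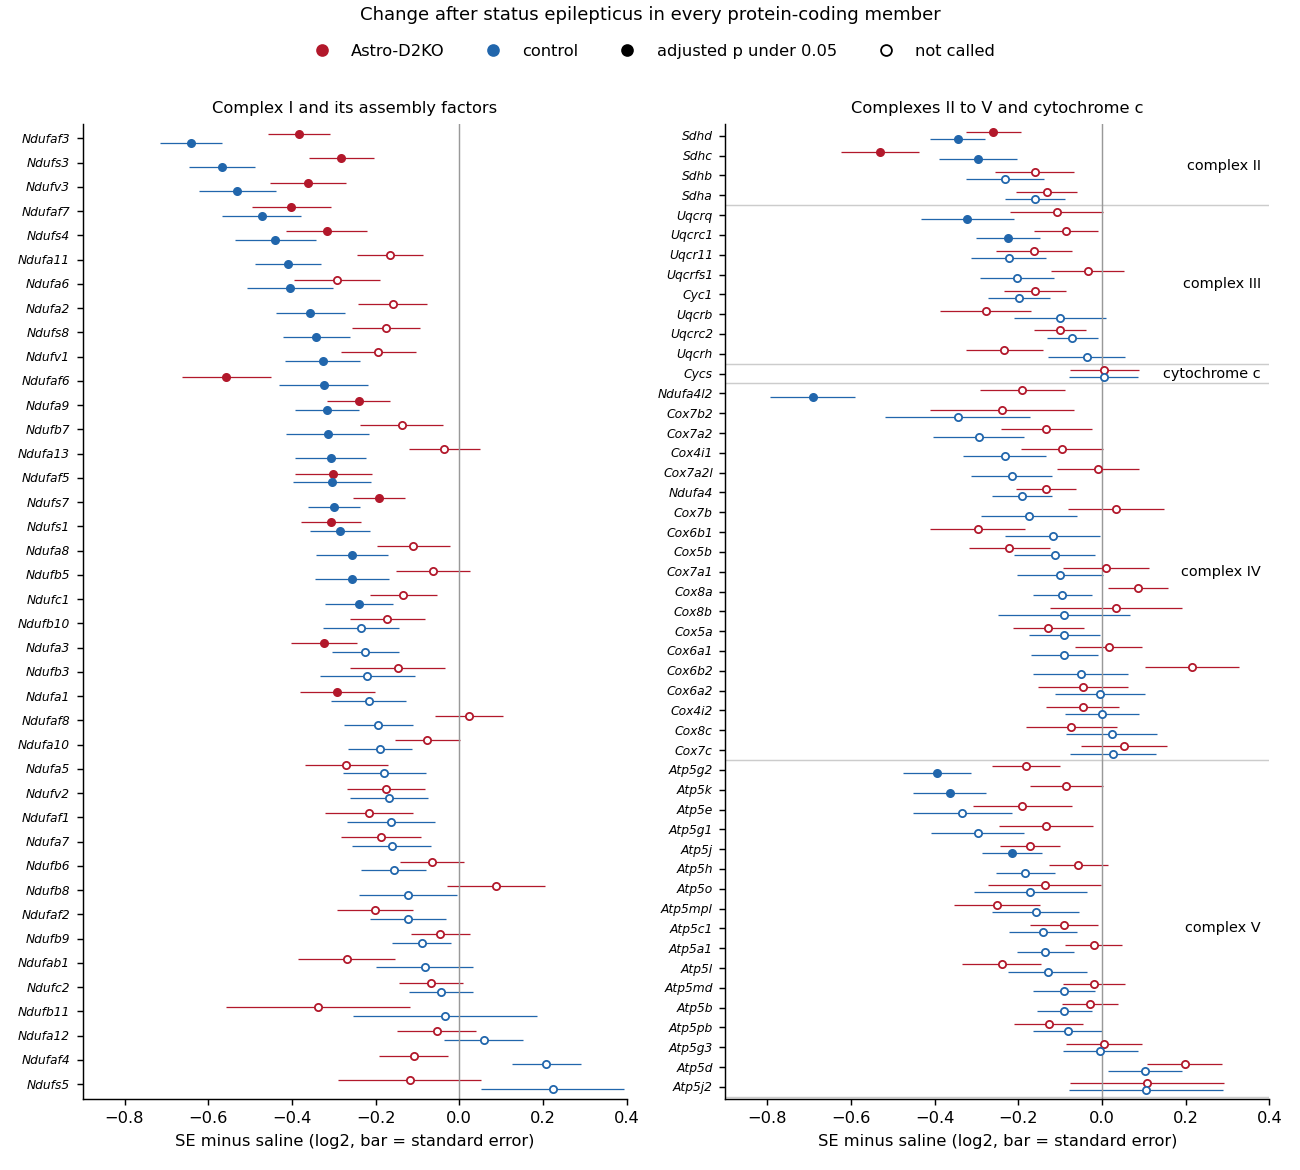
Each row is 1 protein-coding gene, with its change after SE (log2, SE minus saline) in Astro-D2KO mice in red above and in control mice in blue below, bars being standard errors of the fit and filled points an adjusted p under 0.05. Filled points lie on the left of 0 throughout and cluster in complex I, with Ndufaf3 at -0.38 and -0.64 and Ndufs3 at -0.28 and -0.57.

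Complex II is encoded wholly in the nucleus, unlike complexes I, III, IV and V, and it also serves the citric acid cycle. Its membrane anchors, Sdhc and Sdhd, both fell in both genotypes. Sdhc stood at 8.24, 8.20, 8.14 and 8.29 in Astro-D2KO SE arrays, against 8.80, 8.73, 8.83 and 8.62 with saline. The control values were 8.22, 8.31, 8.60 and 8.25 after SE, against 8.55, 8.81, 8.71 and 8.50 with saline. Astro-D2KO groups were far apart, and in control mice 1 SE array reached the saline range. The change was -0.53 ± 0.093 in Astro-D2KO mice (adjusted p = 0.000607) and -0.30 ± 0.093 in control mice (adjusted p = 0.0287, lost without the 2 arrays).

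Sdhd read 7.84, 7.94, 8.01 and 8.00 in Astro-D2KO SE arrays, against 8.15, 8.27, 8.20 and 8.22 with saline. Control arrays read 7.92, 7.90, 7.86 and 7.94 after SE, against 8.29, 8.19, 8.28 and 8.25 with saline. There was no overlap in either genotype. Its change was -0.26 ± 0.066 in Astro-D2KO mice (adjusted p = 0.00875) and -0.34 ± 0.066 in control mice (adjusted p = 0.00099). The catalytic subunits were not called: Sdha, the flavoprotein, changed by -0.13 ± 0.072 in Astro-D2KO mice (adjusted p = 0.234) and by -0.16 ± 0.072 in control mice (adjusted p = 0.131), with 95% intervals of -0.29 to 0.02 and -0.31 to -0.01.

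Downstream of ubiquinone, complexes III to V and Cycs had 0 of 45 genes called lower in Astro-D2KO mice. There 12.6% of all genes were called lower, and 20.4% of those with a mean of at least 6. In control mice 6 (13.3%) were called lower, against 13.7% of all genes and 22.5% of those with a mean of at least 6. The control share is thus near that of all genes and below that of the brighter ones, though the 45 include dim genes such as Ndufa4l2. Without the 2 arrays the count of 0 in Astro-D2KO mice did not hold: complexes III and V had 1 gene each called lower. In control mice complexes III, IV and V then had 0, 1 and 2. In complex III, 0 of 8 genes were called in Astro-D2KO mice and 2 in control mice: Uqcrc1, a core protein (-0.23 ± 0.076, adjusted p = 0.0418), and Uqcrq, a small subunit (-0.32 ± 0.11, adjusted p = 0.0453). Both control calls were lost without the 2 arrays, where 1 of the 8 was called in Astro-D2KO mice. Cyc1, the cytochrome c1 of the complex, stood at 7.63, 7.61, 7.54 and 7.45 in Astro-D2KO SE arrays, against 7.76, 7.71, 7.67 and 7.75 with saline. Its control values were 7.42, 7.67, 7.58 and 7.64 after SE, against 7.80, 7.87, 7.74 and 7.69 with saline. All SE arrays lay below the saline arrays, yet the changes of -0.16 ± 0.074 in Astro-D2KO mice (adjusted p = 0.152) and -0.20 ± 0.074 in control mice (adjusted p = 0.0658) did not pass.

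Cycs, the mobile carrier cytochrome c, averaged 10.78 ± 0.12 in Astro-D2KO SE arrays and 10.77 ± 0.074 in Astro-D2KO saline arrays, and 10.79 ± 0.065 after SE and 10.79 ± 0.14 with saline in control mice (SD, n = 4 each). The intervals of its change, -0.17 to 0.18 in each genotype, exclude a change as large as that of Ndufs3 in control mice.

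Complex IV, the terminal oxidase, had 0 of 19 genes called in Astro-D2KO mice and 1 in control mice. That gene was Ndufa4l2, a relative of the subunit Ndufa4 that is known to be induced by low oxygen. It stood at 5.16, 5.50, 5.39 and 5.57 in Astro-D2KO SE arrays, against 5.53, 5.63, 5.61 and 5.60 with saline. In control mice it stood at 5.09, 4.85, 5.24 and 5.06 after SE, against 5.97, 5.68, 5.67 and 5.68 with saline. The Astro-D2KO groups overlapped, and the control groups did not. The change was -0.19 ± 0.10 in Astro-D2KO mice (adjusted p = 0.22) and -0.69 ± 0.10 in control mice (adjusted p = 0.00011), there the largest of any member. This probe set is dim, with all group means under 6.

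None of the 10 subunits of complex IV that most tissues use was called. Cox4i1 changed by -0.10 ± 0.098 in Astro-D2KO mice (adjusted p = 0.572) and -0.23 ± 0.098 in control mice (adjusted p = 0.104), and Cox5a by -0.13 ± 0.085 and -0.09 ± 0.085 (adjusted p = 0.336 and 0.513). Ndufa4 changed by -0.14 ± 0.072 in Astro-D2KO mice and -0.19 ± 0.072 in control mice (adjusted p = 0.217 and 0.0654). For the tissue isoforms, the changes in Astro-D2KO and control mice were -0.05 and -0.0001 for Cox4i2, the lung isoform. They were -0.04 and -0.01 for Cox6a2, 0.01 and -0.10 for Cox7a1, and 0.03 and -0.09 for Cox8b, isoforms of heart and muscle. Their ubiquitous counterparts had -0.13 and -0.29 for Cox7a2, 0.02 and -0.09 for Cox6a1, and 0.09 and -0.09 for Cox8a. No isoform pair had a called change, apart from Ndufa4l2 in the pair it forms with Ndufa4.

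In complex V, 0 of 17 genes were called in Astro-D2KO mice and 3 in control mice (1 and 2 called lower without the 2 arrays). All 3 belong to the membrane part or the peripheral stalk, and none of the 5 subunits of the F1 part was called. Atp5g2, 1 of the genes for the rotating c ring, stood at 9.75, 9.72, 9.87 and 9.79 in Astro-D2KO SE arrays, against 9.92, 10.00, 9.91 and 10.02 with saline. Control arrays read 9.78, 9.62, 9.38 and 9.71 after SE, against 10.05, 9.96, 10.01 and 10.06 with saline. The groups were separate in both genotypes. The change was -0.18 ± 0.081 in Astro-D2KO mice (adjusted p = 0.133) and -0.39 ± 0.081 in control mice (adjusted p = 0.00184), and a second probe set gave -0.15 and -0.38.

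The other 2 were Atp5k, subunit e (-0.36 ± 0.088, adjusted p = 0.00603), and Atp5j, coupling factor 6 (-0.22 ± 0.071, adjusted p = 0.0376, lost without the 2 arrays). The catalytic beta subunit Atp5b averaged 11.84 ± 0.038 in Astro-D2KO SE arrays and 11.87 ± 0.040 with saline, and 11.77 ± 0.093 after SE and 11.86 ± 0.043 with saline in control mice. Its change was -0.03 in Astro-D2KO mice (95% interval -0.17 to 0.11) and -0.09 in control mice (-0.23 to 0.05). Atp5a1, the alpha subunit, changed by -0.02 (-0.16 to 0.12) and -0.14 (-0.28 to 0.01). The 2 pseudogenes, which are dim, had positive fitted changes in both genotypes and were not called.

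The SE comparisons of the genotypes have no array in common in their means, but both take each gene's spread from the same fit over 16 arrays, so their lists are not independent. They shared 12 genes, which is 85.7% of the Astro-D2KO list and 42.9% of the control list. Over all genes, 2008 were called lower in both, 71.8% of the Astro-D2KO list and 66.1% of the control list. The 12 shared members were 10 genes of complex I (Ndufa9, Ndufs1, Ndufs3, Ndufs4, Ndufs7, Ndufv3 and the 4 assembly factors) and Sdhc and Sdhd of complex II. All 14 genes called in Astro-D2KO mice had a fitted change below 0 in control mice, and all 28 called in control mice had one below 0 in Astro-D2KO mice. Across the 91 genes the changes of the genotypes correlated with r = 0.57, and across all genes with r = 0.87, as a description over genes that share arrays and are not independent. The changes of all genes span a wider range than those of the members, so these values of r are not like for like. Without the 2 arrays, 8 genes were called in both, not all of them among the 12. Of the 12, Ndufaf6 and Sdhc then lost their call in control mice, and Ndufa9, Ndufaf5, Ndufs4 and Ndufs7 lost theirs in Astro-D2KO mice.

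**Figure D3:**
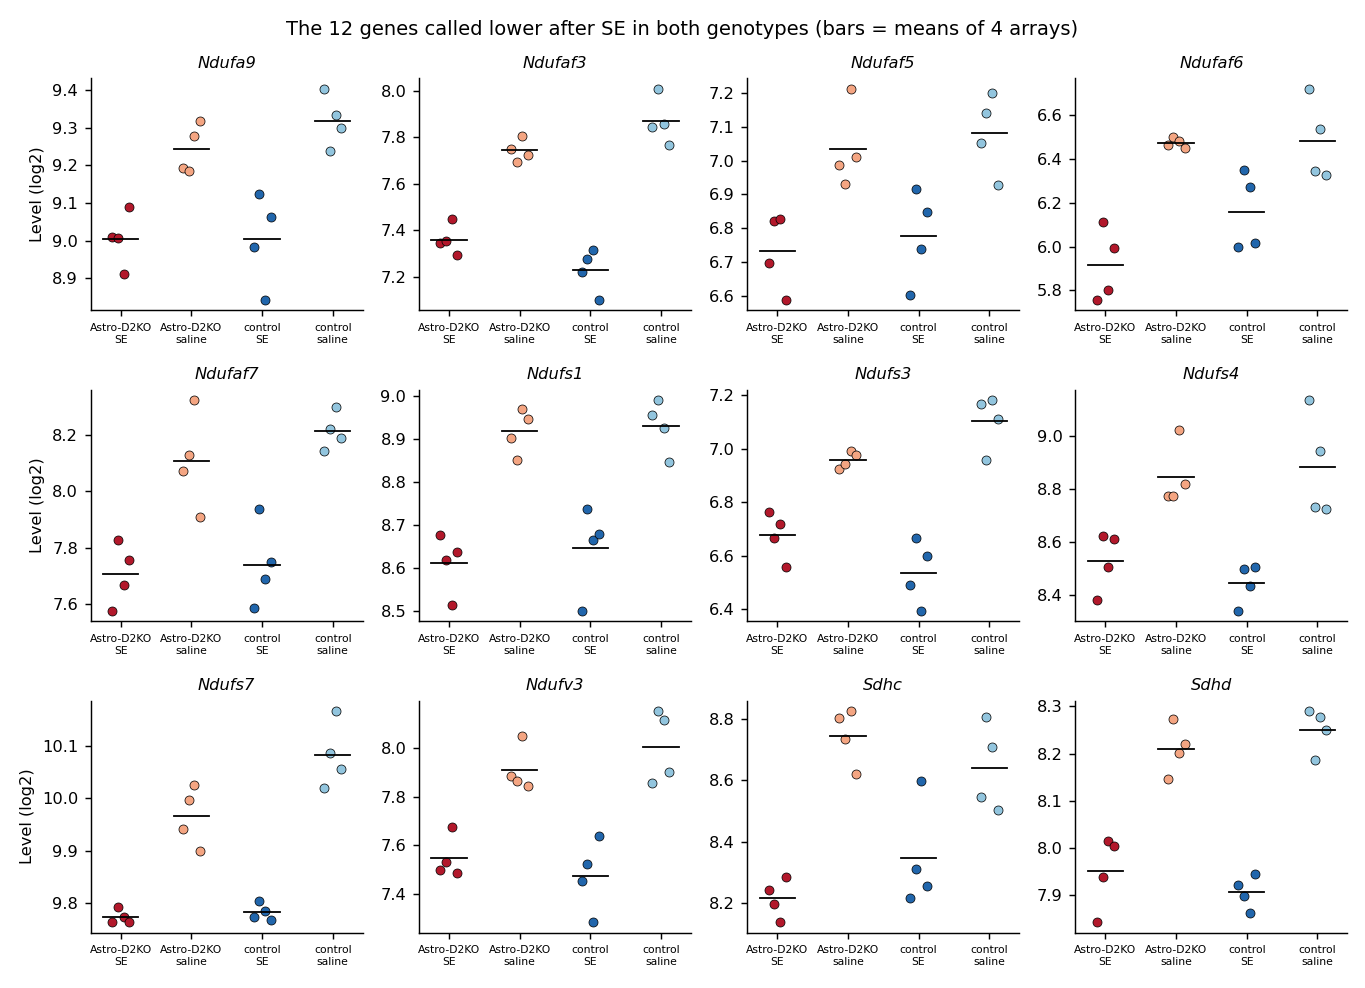
Log2 levels of the 12 genes called lower after SE in both genotypes, 1 point per array, with bars at the means of 4 arrays; each panel has its own axis. SE arrays lie below the saline arrays of their genotype in every panel but those of Ndufaf6 and Sdhc, where the control groups overlap.

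Promoter windows were examined for these genes because nuclear respiratory genes are known to share binding sites for NRF1, YY1, ERR and ETS factors. RefSeq windows (GRCm38.p6, 250 bases before to 50 after the start) matched 73 of the 91 genes, giving 78 windows of 300 bases. Motifs were searched on both strands, and no matches of different motifs overlapped in the members. The NRF1 letters GCGCANGCG were in 28.2% of the members' windows, against 6.25% of all 32851 windows. The YY1 letters ANATGGCGG were in 10.3%, against 1.86%, the ETS letters CCGGAAGT in 6.41%, against 3.89%, and the ERR letters TNAAGGTCA in 2.56%, against 1.28%. For comparison, the letters TATAAA were in 11.5% of members' windows and 13.6% of all. Among the 25 windows of genes called in either genotype, 8 held NRF1 letters and 6 held YY1 letters, and among the 53 windows of genes called in neither, 14 and 2 did. With the longer 10-letter forms of these motifs, searched first, the counts were 8 and 4 of 25 and 10 and 2 of 53, so both motifs' counts depend on the form used. These are small counts, given without a test, and base composition was not matched.

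Windows of 4 of the 12 genes are shown, chosen to show each of the 5 searched motifs, with the matched letters in capitals and each sequence written along its gene's strand. Ndufaf5 (chr2:140170396-140170695, + strand) holds 2 overlapping NRF1 matches, Ndufs3 (chr2:90904672-90904971, - strand) an ETS match, Ndufs7 (chr10:80249199-80249498, + strand) a YY1 match and the letters TATAAA, and Sdhd (chr9:50603800-50604099, - strand) an NRF1 match and an ERR match, on either strand.
Ndufaf5: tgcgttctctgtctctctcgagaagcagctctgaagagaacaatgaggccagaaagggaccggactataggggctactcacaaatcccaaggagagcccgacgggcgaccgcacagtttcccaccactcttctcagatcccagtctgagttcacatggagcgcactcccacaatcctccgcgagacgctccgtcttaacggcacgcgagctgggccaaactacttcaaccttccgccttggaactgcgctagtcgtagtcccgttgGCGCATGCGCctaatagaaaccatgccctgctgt
Ndufs3: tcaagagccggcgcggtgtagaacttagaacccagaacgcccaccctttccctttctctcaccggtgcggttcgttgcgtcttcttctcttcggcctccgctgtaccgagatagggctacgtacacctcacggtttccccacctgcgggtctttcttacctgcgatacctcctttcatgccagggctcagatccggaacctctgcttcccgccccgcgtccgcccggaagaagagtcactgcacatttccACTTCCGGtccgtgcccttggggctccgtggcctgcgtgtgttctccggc
Ndufs7: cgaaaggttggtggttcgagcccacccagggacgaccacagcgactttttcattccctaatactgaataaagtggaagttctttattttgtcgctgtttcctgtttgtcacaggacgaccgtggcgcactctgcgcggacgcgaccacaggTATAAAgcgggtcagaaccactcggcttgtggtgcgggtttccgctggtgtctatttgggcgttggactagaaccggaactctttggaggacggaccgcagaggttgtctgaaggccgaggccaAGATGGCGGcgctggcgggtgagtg
Sdhd: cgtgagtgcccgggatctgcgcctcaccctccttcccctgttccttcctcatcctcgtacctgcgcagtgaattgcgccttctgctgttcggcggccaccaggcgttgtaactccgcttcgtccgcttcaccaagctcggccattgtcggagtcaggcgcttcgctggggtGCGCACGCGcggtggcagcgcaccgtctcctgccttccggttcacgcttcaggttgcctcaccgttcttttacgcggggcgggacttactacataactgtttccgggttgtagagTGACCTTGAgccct
A match shows that the letters are present in the window, not that a factor binds there. These 4 genes had changes of -0.30, -0.28, -0.19 and -0.26 in Astro-D2KO mice and -0.30, -0.57, -0.30 and -0.34 in control mice, in the order of the lines above.

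The second question was whether loss of Dio2 from astrocytes alters these genes, under saline or after SE. No member was called by limma in either comparison (0.0% of all genes were called lower or higher in each). After SE, 4 members (4.4%) had an unadjusted p under 0.05, against 6.12% of all genes, and the smallest adjusted p was 0.631. Under saline there were 5 (5.49%), against 3.99% of all genes, with a smallest adjusted p of 0.999. Both shares are near the background.

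After SE the 5 smallest unadjusted p belonged to Ndufa4l2 (0.35 ± 0.10), Uqcrh, a hinge protein of complex III (-0.27 ± 0.092), Atp5g1, another c-ring gene (0.27 ± 0.11), and the assembly factors Ndufaf6 (-0.24 ± 0.11) and Ndufaf2 (-0.18 ± 0.091). No member's Astro-D2KO SE arrays lay wholly apart from the control SE arrays, where 1.4% of all genes lay lower and 1.53% higher. The median difference was 0.01, and -0.00 without the 2 arrays. The 95% interval lay within 0.5 of 0 for 87 of the 91 genes.

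Under saline the smallest unadjusted p belonged to Ndufa11 (-0.22 ± 0.078), Ndufa2 (-0.22 ± 0.082), Atp5k (-0.21 ± 0.088), Cox7b, a complex IV subunit (-0.26 ± 0.12), and Cox7a2l, a factor that joins complexes III and IV (-0.22 ± 0.097). Arrays of 5 genes, Atp5k, Cox4i1, Ndufa11, Ndufa2 and Ndufa4l2, were wholly lower in Astro-D2KO mice (5.49%, against 1.34% of all genes), and those of Ndufaf4 wholly higher (1.1%, against 1.27%). Ndufa2, for example, stood at 7.64, 7.56, 7.73 and 7.55 in Astro-D2KO saline arrays, against 7.92, 7.79, 7.91 and 7.74 in control saline arrays. The groups do not overlap, but the gap between them is far smaller than the spread within either. The median difference was -0.05 under saline, where 65 of 91 genes had a fitted difference below 0, against 49.9% of all genes. The 95% interval was within 0.5 of 0 for 87 of the 91.

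**Figure D4:**
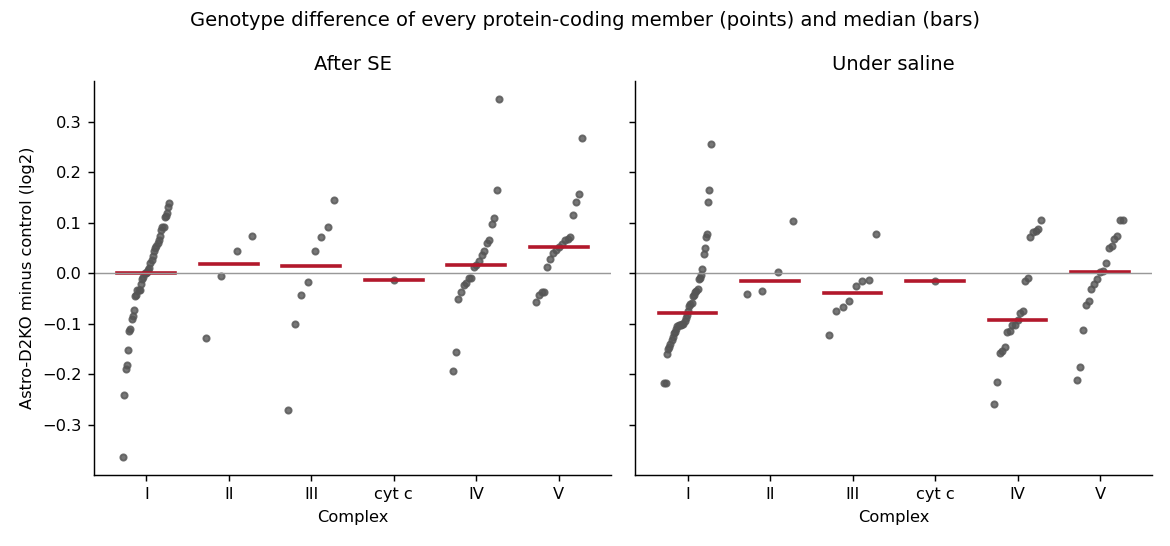
Each point is 1 protein-coding gene, plotted as its Astro-D2KO minus control difference (log2) after SE and under saline by complex, with red bars at the medians. After SE the medians lie near 0, and under saline those of complexes I and IV lie slightly below it, with no gene called.

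The interaction subtracts the control response to SE from the Astro-D2KO response and tests whether the responses differ. By limma no member was called (0.0% of all genes in either direction). An unadjusted p under 0.05 was found for 7 members (7.69%), against 4.65% of all genes, and the smallest adjusted p was 0.998. The 5 smallest belonged to Ndufa4l2 (0.50 ± 0.14, 95% interval 0.20 to 0.80), Ndufaf4 (-0.32 ± 0.12), Ndufs3 (0.29 ± 0.11), Ndufaf3 (0.26 ± 0.10) and Ndufa13, a complex I subunit (0.27 ± 0.12). Fitted interactions were above 0, meaning less of a fall in Astro-D2KO mice, for 62 of 91 genes, against 51.3% of all genes, with a median of 0.07. Both the interaction and the saline difference use the control saline arrays, so they are not separate evidence. The median half-width of the interval was 0.27, larger than the median SE change in either genotype, so the larger count of calls in control mice is not shown to be a difference between genotypes.

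Genes around the chain were counted in the same fit, and the shares of their lists called lower can be read against 20.4% of genes with a mean of at least 6 in Astro-D2KO mice and 22.5% in control mice. The 10 measured genes of the chain encoded by mitochondrial DNA were not called in either genotype, with median changes of -0.06 in Astro-D2KO mice and 0.05 in control mice. Fitted changes were below 0 for all 10 in Astro-D2KO mice, against 60.5% of genes with a mean of at least 6. In control mice this held for 2 of the 10, against 61.8%. COX1, the catalytic subunit of complex IV, averaged 13.59 after SE and 13.63 with saline in Astro-D2KO mice, and 13.61 and 13.62 in control mice. Apart from ND6 these probe sets read at 13 or more, close to the highest value of the table, 13.79, and whether they could register a change was not tested.

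Of 42 assembly factors outside the Nduf series, 1 rose and 11 fell (26.2%) in Astro-D2KO mice, and 1 rose and 17 fell (40.5%) in control mice. Tmem126b, a complex I assembly factor, averaged 7.17 ± 0.14 after SE and 7.82 ± 0.09 with saline in Astro-D2KO mice, and 7.22 ± 0.12 and 7.83 ± 0.16 in control mice. It fell in both (changes of -0.65 and -0.61, adjusted p = 0.00011 and 0.00016). Higd2a, which helps build complex IV, fell by 0.39 and 0.63 on the log2 scale (adjusted p = 0.0057 and 9.7e-05). Lyrm7 and Uqcc3, both complex III assembly factors, also fell in each genotype.

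Mitochondrial ribosomal proteins, which translate the mitochondrially encoded subunits, gave 0 higher and 15 lower of 71 (21.1%) in Astro-D2KO mice and 0 higher and 28 lower (39.4%) in control mice, with medians of -0.10 and -0.24. The Astro-D2KO share is near that of all genes with a mean of at least 6. Cytosolic ribosomal proteins gave 3 higher and 1 lower of 87 in Astro-D2KO mice and 1 higher and 3 lower in control mice, with medians of 0.05 and 0.00. Proteasome subunits gave 0 higher and 2 lower of 39 in Astro-D2KO mice and 2 higher and 2 lower in control mice.

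**Figure D5:**
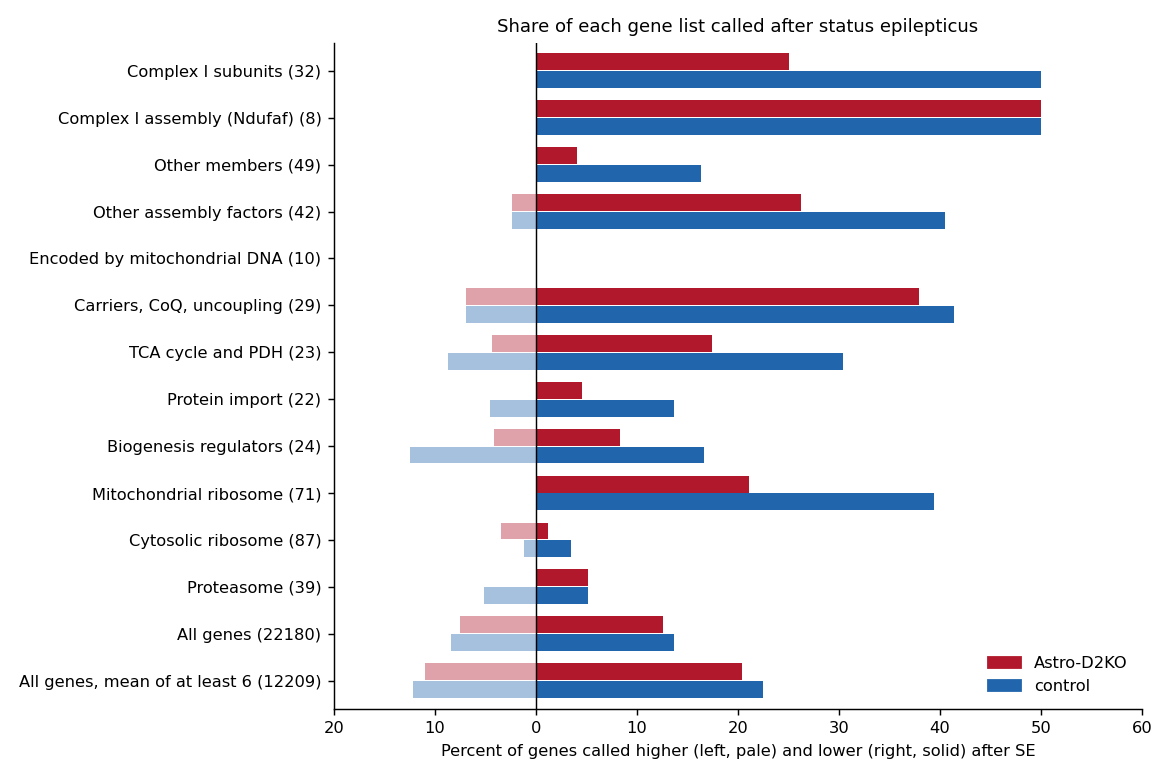
Percent of each list called lower (solid, right of 0) and higher (pale, left of 0) after SE in Astro-D2KO mice (red, above) and control mice (blue, below), with the number of genes measured in brackets. Complex I, assembly factors and mitochondrial carriers exceed the share of genes with a mean of at least 6 called lower in both genotypes, mitochondrial ribosomal proteins exceed it in control mice and are near it in Astro-D2KO mice (21.1%, against 20.4%), while the cytosolic ribosome and the proteasome lie below them.

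Carriers and electron-feeding genes went both ways. Of 29, 2 rose and 11 fell (37.9%) in Astro-D2KO mice, and 2 rose and 12 fell (41.4%) in control mice. Slc25a3, the carrier that brings phosphate to the ATP synthase, rose by 0.57 ± 0.080 in Astro-D2KO mice and 0.56 ± 0.080 in control mice (adjusted p = 7.6e-05 and 8.9e-05). It averaged 9.52 ± 0.05 after SE and 8.95 ± 0.05 with saline in Astro-D2KO mice, and 9.48 ± 0.17 and 8.92 ± 0.04 in control mice. Coq2 and Coq9 of ubiquinone synthesis and Etfa, which passes electrons from fat oxidation, fell in both genotypes.

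Of 23 genes of the citric acid cycle and pyruvate dehydrogenase, 1 rose and 4 fell (17.4%, below the 20.4% of genes with a mean of at least 6) in Astro-D2KO mice, and 2 rose and 7 fell (30.4%) in control mice. The pyruvate dehydrogenase kinases, which switch that enzyme off, split: Pdk2 fell by 0.64 on the log2 scale in each genotype (adjusted p = 0.00034 and 0.00029) and Pdk1 by 0.44 and 0.41. Pdk4 rose, by 0.62 in Astro-D2KO mice and 0.82 in control mice (adjusted p = 0.011 and 0.0014). Of 22 protein import genes, 0 rose and 1 fell (4.55%) in Astro-D2KO mice and 1 rose and 3 fell (13.6%) in control mice.

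Among 24 regulators of mitochondrial biogenesis, 1 rose and 2 fell (8.33%) in Astro-D2KO mice, and 3 rose and 4 fell (16.7%) in control mice. Ppargc1a, the coactivator PGC-1alpha that drives respiratory genes, averaged 9.26 ± 0.09 after SE and 9.06 ± 0.08 with saline in Astro-D2KO mice (0.20 ± 0.12, adjusted p = 0.26). In control mice it averaged 9.50 ± 0.27 and 9.09 ± 0.17 and rose (0.41 ± 0.12, adjusted p = 0.016). Nrf1 changed by 0.15 ± 0.074 in Astro-D2KO mice (adjusted p = 0.19) and rose in control mice (0.24 ± 0.074, adjusted p = 0.027). Esrra and Tfam, which encode the receptor ERR-alpha and the mitochondrial DNA packaging factor, were not called in any comparison. Tfb1m, which modifies mitochondrial ribosomal RNA, fell in both genotypes, by 0.68 in Astro-D2KO mice and 0.58 in control mice (adjusted p = 6.5e-06 and 3.5e-05).

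Cell type markers were read beside these results, and their part in them was not tested. Of 12 neuron markers, 4 rose and 2 fell in Astro-D2KO mice and 3 rose and 2 fell in control mice. Averaged over the list as a deviation from the mean of the 16 arrays, neuron markers lay at 0.00 to 0.07 in Astro-D2KO SE arrays and -0.06 to -0.04 with saline, and at -0.01 to 0.10 after SE and -0.05 to 0.01 with saline in control mice. The list's mean was thus higher after SE in Astro-D2KO mice without overlap and overlapped in control mice, while its median change was -0.12 in Astro-D2KO mice and -0.13 in control mice, so mean and median differ in sign. Of 10 astrocyte markers 1 rose and 1 fell in Astro-D2KO mice and 1 rose and 3 fell in control mice. Of 9 microglia markers 2 fell in each genotype, among them P2ry12, and of 8 endothelial markers 4 rose and 1 fell in each. Of 7 oligodendrocyte markers, 2 fell in Astro-D2KO mice (Mbp and Mag) and 0 in control mice. The choroid plexus list, 0 of 7 called, ranged from -0.73 to 1.12 in Astro-D2KO SE arrays, -0.31 to 0.94 with saline, -0.50 to 0.74 in control SE arrays and -0.59 to 1.40 with saline, so it varied from array to array in every group. Of 2 blood cell genes measured, Ptprc rose in control mice.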

How the data were processed

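Total RNA from 16 hippocampi was labelled with biotin and hybridised to Affymetrix arrays, 1 array per mouse title, 4 per group. The deposited values are log2 probe set summaries made by the authors with RMA, per the submitters' processing notes, which give no version or settings. Base 2 is an inference from RMA's usual output, values of 1.70 to 13.79 and array medians of 5.77 to 5.82. Array precision is limited by their number. Scan batches were not analysed here.

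Of 41345 probe sets, 23521 had 1 symbol in the platform annotation, 1814 several and 16010 none. RefSeq identifiers matched 23328 and changed 0 symbols. The probe set with the highest mean stood for each of the 1082 genes with more than 1. A model with a mean for each group was fitted to all 22180 genes with limma 3.58.1 (R 4.3.3; 12 residual degrees of freedom), with two-sided tests, Benjamini-Hochberg adjustment and a threshold of 0.05. Dio2 was tested by exact permutation. The fit was tested on simulated data. No gene was filtered on level.

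The members and all 14 companion lists were chosen with earlier results of these data known. Named genes followed a rule: the 10 largest called falls and rises of members per comparison, the 5 smallest p where fewer than 5 were called, fixed textbook subunits and isoform pairs, and up to 4 called genes per list. Ndufa8, Ndufa9, Ndufs7, Ndufs8, Ndufv2, Sdhd, Uqcrq, Atp5d, Atp5e, Atp5j, COX1, ND6 and the 2 pseudogenes were named after their values were seen. The NRF1 and YY1 motifs were shortened by 1 end letter after their matches were seen. The limma p-values set a difference of group means against the spread of these arrays within their groups. The 10 kinds of alternative setting covered scaling, probe set choice, a mean of at least 6, the groups in the fit, the replicate block, the spread, array weights and left-out arrays.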

Additional observations from a re-analysis of the deposited data

Results flagged for a closer look

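Values of single arrays were compared with the other 3 of their group by Dixon's ratio, the gap to the nearest value over the whole range, at its 95% critical value for 4 arrays. Of 188 values checked 4 passed, and chance alone flags about 1 in 20. Cox6a2 in the Astro-D2KO SE group had a ratio of 0.948, with replicate 1, an array that also stands apart for Dio2, at 6.94 and the others at 6.65 to 6.67. Ndufa3 in the control saline group had a ratio of 0.872, with replicate 3 at 10.25 and the others at 10.37 to 10.38. Ndufa4l2 in the control saline group had a ratio of 0.997, with replicate 1 at 5.97 and the others at 5.67 to 5.68, so the size of its fall in control mice rests partly on that array. The complex V mean in the control SE group had a ratio of 0.856, with replicate 3 at -0.203 and the others at -0.058 to -0.034.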

How the results depend on the processing

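No called gene changed direction in any setting, while the small genotype median after SE (0.0131) changed sign without the 2 arrays that stand apart and within the leave-one-out range. With only the groups compared in the fit, 17 members were called in control mice, against 28 in the 4-group fit; fewer arrays then estimate the spread. Leaving out 1 array at a time gave 9 to 16 members called and a median change of -0.1597 to -0.1085 in Astro-D2KO mice, with 9 without Astro-D2KO saline replicate 3, and 19 to 31 members and -0.2098 to -0.1656 in control mice. The genotype comparisons and the interaction stayed at 0 called in every setting, with leave-one-out medians of -0.0051 to 0.04 after SE, -0.0665 to -0.0304 under saline and 0.0407 to 0.0837 for the interaction. Same-numbered arrays did not deviate together consistently (4 of 24 pairs had a correlation over 0.1, range -0.286 to 0.338, and 3 of 16 arrays matched their own number best). No pairing by number was visible, which does not exclude one. With the replicate block, 13 members were called in Astro-D2KO mice and 23 in control mice, and 0 in the other comparisons. Over 25 alternative fits, 8 of the 14 calls in Astro-D2KO mice and 17 of the 28 in control mice held in each fit that gave a value. Quantile normalisation repeated gave 13 and 27 calls, median centring 14 and 32, and a mean of at least 6 gave 19 and 38. The member counts in this section are not set against the share of all genes called in the same fits. They therefore do not show whether a shift, such as that to 19 and 38, is particular to the members. Probe sets of Atp5e (-0.33 and 0.02 in control mice) and Ndufa8 (-0.26 and 0.06) disagreed, and the Ndufa8 call was lost when probe sets were averaged. Changes under about 0.2 mostly lie within the intervals that 4 arrays per group allow.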
